A study of Homo sapiens with 6 samples.

Results

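The genes described here are 10 that set the pace of the G1 phase of the cell cycle, in HCT116, an established human colon cancer cell line. They are the D-type cyclins CCND1 and CCND3, the E-type cyclins CCNE1 and CCNE2, the kinases CDK4, CDK6 and CDK2, the kinase inhibitor CDKN1B (p27), the retinoblastoma protein gene RB1 and the transcription factor E2F1. They were chosen by name from the gene name column of the count table, and all 10 of the 60675 rows were found, passed the filter on low counts and were measured in all 6 libraries. The libraries fell into 3 groups of 2: cells with knockdown of PIR (siPIR), which encodes the iron-binding nuclear protein pirin, cells given SP2509 at 3 uM for 48 hours, and untreated cells. SP2509 is a small molecule developed against LSD1, which removes methyl groups from histones. The siPIR libraries carry SP2509 as their treatment label too, and knockdown alone cannot be told apart from knockdown with the compound by the labels. No group with a control siRNA was analysed here, so transfection and knockdown cannot be told apart either. The protocol names DMSO, but the control samples are titled as untreated. HCT116 is 1 line, and nothing states that the 2 libraries of a group are separate cultures, so p-values measure only the spread between libraries, which may be technical.

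D-type cyclins bind CDK4 and CDK6 in early G1, and these kinases phosphorylate the retinoblastoma protein. Unphosphorylated retinoblastoma protein holds E2F transcription factors inactive, and its phosphorylation frees them to switch on genes of DNA replication. Cyclin E with CDK2 completes this step, and CDKN1B restrains it. E2F1 also acts on its own promoter and on CCNE1. HCT116 cells carry intact RB1 and, as is known of the line, a silenced copy and a frameshifted copy of the inhibitor gene CDKN2A.

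Regulatory sequence was available for 7 of the 10 genes, as windows of 300 bases running from 250 before to 50 after the transcription start (RefSeq, GRCh38.p14). The windows of CDK4 and E2F1 are shown because they held more copies of a searched motif than those of the other genes. Capitals mark the E-box CACGTG in CDK4, a word bound by MYC and related factors, and E2F-type words in E2F1. The CDK4 window lies at chr12:57752261-57752560 and the E2F1 window at chr20:33686336-33686635, both on the minus strand and printed 5′ to 3′.
CDK4: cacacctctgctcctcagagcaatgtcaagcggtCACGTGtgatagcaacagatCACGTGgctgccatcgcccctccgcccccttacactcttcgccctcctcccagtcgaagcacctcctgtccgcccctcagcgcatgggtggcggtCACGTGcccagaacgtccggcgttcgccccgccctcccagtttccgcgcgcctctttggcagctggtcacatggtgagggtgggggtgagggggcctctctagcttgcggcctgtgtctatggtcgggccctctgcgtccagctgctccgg
E2F1: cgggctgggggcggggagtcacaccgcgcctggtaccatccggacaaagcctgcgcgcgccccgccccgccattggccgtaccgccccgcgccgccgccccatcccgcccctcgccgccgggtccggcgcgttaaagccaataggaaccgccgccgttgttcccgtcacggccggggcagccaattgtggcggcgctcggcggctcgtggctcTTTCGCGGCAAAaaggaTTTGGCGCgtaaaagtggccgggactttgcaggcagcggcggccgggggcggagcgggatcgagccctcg

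The E2F-type words searched on both strands were TTTCCCGC, TTTCCCGG, TTTCGCGC, TTTCGCGG, TTTGCCGC, TTTGCCGG, TTTGGCGC and TTTGGCGG. The E2F1 window held 3 of them, of which the first and second overlap within 1 run of capitals. At least 1 was found in 6.19% of all 35116 promoter windows and at least 3 in 0.0171%. The CDK4 window held 3 E-boxes, a motif present at least once in 7.26% of windows and at least 3 times in 0.094%. Among the other 5 genes with a window, CDK6 had 1 E-box in 1 of 2 windows, and CCND3, CCNE1, CDKN1B and RB1 had neither motif. The RB1 window belongs to a start inside the gene. These matches describe letters in the windows and no binding was measured.

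The libraries held 22622121 to 28816285 counts. Pairs of libraries within a group had Pearson correlations of log2 CPM (a gene's counts scaled to a common library size) across genes of 0.991 to 0.996. The siPIR libraries stood apart from all others, at 0.749 to 0.791, whereas SP2509 and untreated libraries correlated at 0.934 to 0.937. PIR had 37 and 39 counts in siPIR libraries, 377 and 305 in SP2509 libraries and 519 and 462 in untreated libraries, a log2 fold change of -2.87 for siPIR against untreated (SE 0.18, adjusted p = 3.39e-09) and -1.995 after correction for GC content and transcript length. Colorectal epithelial markers summed to 1319 and 1327 CPM in siPIR libraries, 4636 and 4689 in SP2509 libraries and 3574 and 3643 in untreated libraries. In untreated libraries KRT8, KRT18 and KRT19 held most of the sum, at means of 1852, 710 and 703 CPM. VIL1 and LGALS4 of the same list did not pass the count filter. Within that list EPCAM (1.75 on the log2 scale) and CDH1 (0.61) were higher and 4 markers lower after siPIR as fitted, with a median of -2.71, and 3 were higher and 3 lower with the offset, with a median of -0.14. Leukocyte markers summed to at most 7.18 CPM, 6.58 of it from HLA-DRA, and endothelial markers to at most 1.83 CPM. Fibroblast markers summed to at most 25.7 CPM, in an untreated library, 24.8 of it from COL1A1. PTPRC, CD3E and COL1A2 had no counts in any library.

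In siPIR libraries the fold change of a gene moved with the GC content of its transcript. Against untreated libraries, the median log2 fold change was 2.39 among genes under 35% GC, 0.06 among those of 45 to 50% and -5.83 among those above 65%. Across the same bins SP2509 against untreated ran between -0.33 and 0.07. The 10 genes span 36.9% GC (CCNE2) to 62.49% (E2F1). Fold changes of the 10 genes in siPIR libraries are therefore given as fitted and again with an offset for GC content and transcript length. Levels per library carry no offset. The offset left part of the trend. With it the median for siPIR against untreated was 0.24 under 35% GC, -0.29 at 60 to 65% and -0.63 above 65%. Whether the trend arose in the cells or in library making was not tested.

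**Figure D1:**
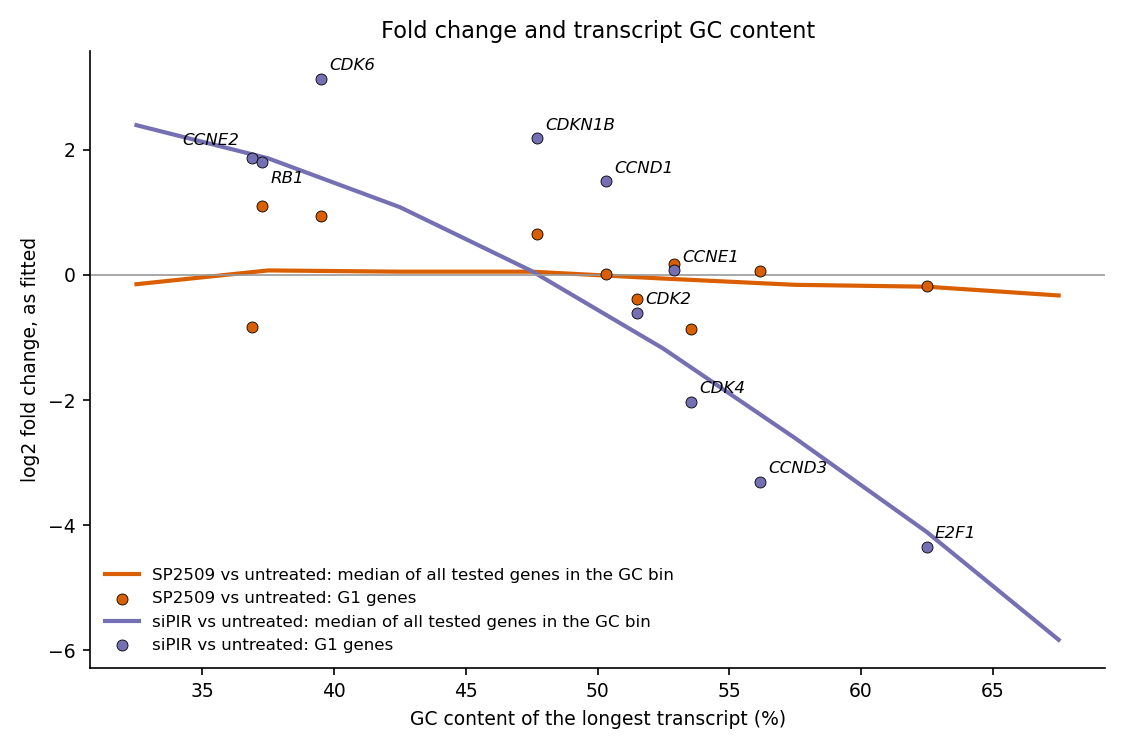
As-fitted log2 fold change of the 10 G1 genes (points) against the GC content of the longest transcript in percent, with the median of all tested genes in each GC bin (lines), for siPIR against untreated and SP2509 against untreated. The siPIR line falls from 2.39 to -5.83 and RB1, CCNE2 and E2F1 lie close to it. CDKN1B, CCND1, CDK6 and CCNE1 lie above it, CDK2 slightly above it, and CCND3 and CDK4 below it.

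After SP2509, RB1, CDK6 and CDKN1B were higher and CDK4, CDK2 and CCNE2 were lower than in untreated cells, while CCND1, CCND3, CCNE1 and E2F1 did not pass the test. Thus 6 of 10 genes were called at an adjusted p under 0.05 (edgeR quasi-likelihood test, Benjamini-Hochberg over 16503 genes), where 68.6% of all tested genes were called, so the share is close to the background. With library totals alone 9 of 10 were called, 3 higher and 6 lower. With the offset for GC content and length, 5 of 10 were called, CCNE2 no longer among them, where 73.2% of all genes were. The median log2 fold change of the 10 genes was 0.04, against -0.04 over all tested genes. Across all tested genes 33.5% were higher and 35.1% lower. That balance depends on the scaling, since with library totals alone 3363 genes were higher and 8527 lower and the median of all genes was -0.43, and with upper-quartile scaling 4202 were higher and 7394 lower and the median was -0.27.

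After siPIR, CDK6, CDKN1B, CCNE2, RB1 and CCND1 were higher and E2F1, CCND3, CDK4 and CDK2 lower than in untreated cells as fitted. These 9 of 10 genes stand against 86.1% of all tested genes called, 39.3% higher and 46.9% lower. The median of the 10 was 0.79, against -0.28 over all genes. With library totals alone all 10 were called, 5 in each direction, while 4796 of all genes were higher and 9359 lower, with a median of -0.89. With the offset, CCND1, CCNE1, CDK2, CDK6 and CDKN1B were higher and CCND3 and CDK4 lower, 7 of 10 genes against 64% of all genes called, 30.9% higher and 33.1% lower. CDK6, CDKN1B and CCND1 were higher, and CCND3 and CDK4 lower, both as fitted and with the offset. Both comparisons share the untreated libraries.

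**Figure D2:**
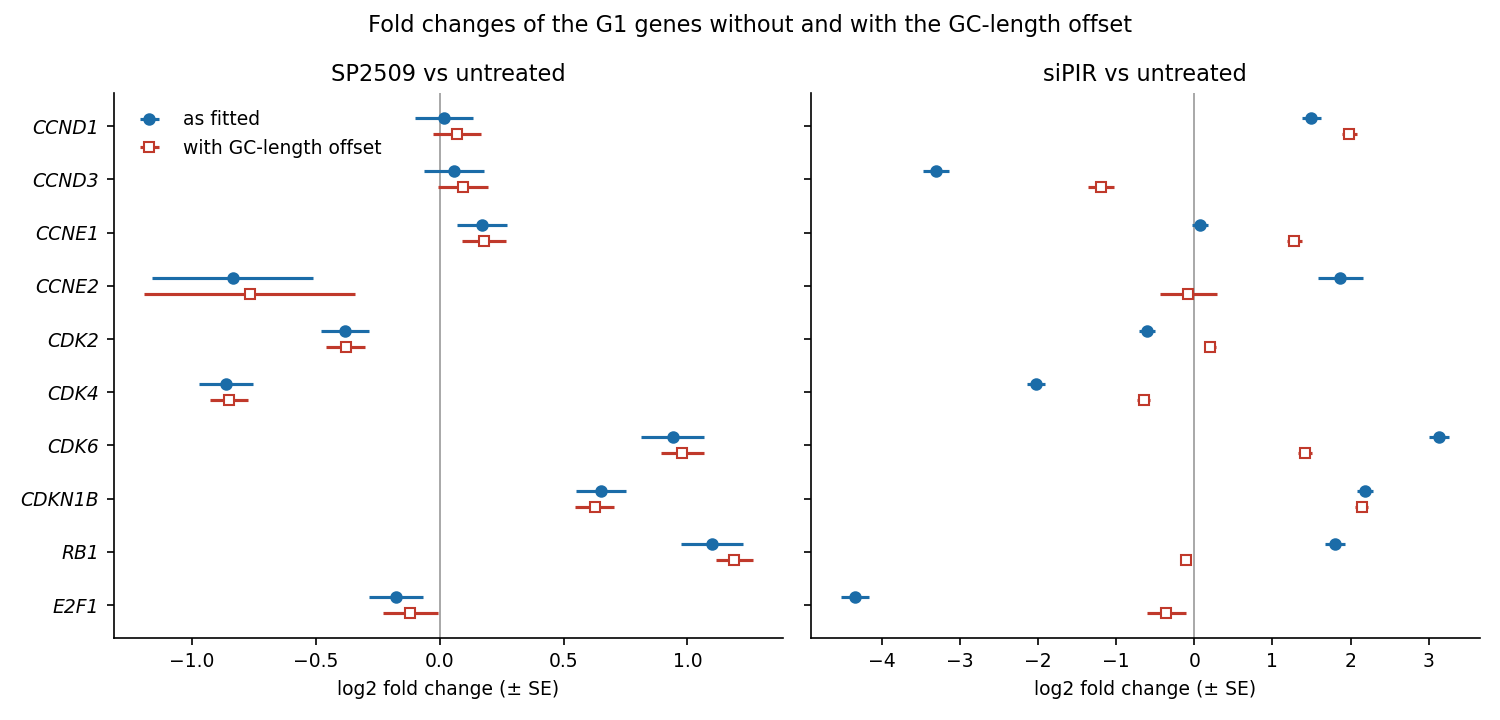
Log2 fold change with its standard error for the 10 G1 genes, for SP2509 against untreated (left) and siPIR against untreated (right), as fitted (filled circles) and with the GC-length offset (open squares). The 2 fits nearly coincide for SP2509, while for siPIR E2F1 is -4.34 as fitted and -0.36 with the offset, and RB1 1.80 and -0.11.

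CCND1 encodes cyclin D1, the partner of CDK4 and CDK6 that growth signals induce (chr11:69641087-69654474, plus strand; gene coordinates here and below are GENCODE 29 on GRCh38). Its level was 1489 and 1259 CPM in siPIR libraries, 459 and 526 in SP2509 libraries and 513 and 460.1 in untreated libraries, all scaled by TMM. Both siPIR libraries lay above the other 4, and the SP2509 and untreated libraries overlapped. For siPIR against untreated the log2 fold change was 1.498 (SE 0.12, adjusted p = 4.86e-08), and 1.98 with the offset. SP2509 against untreated gave 0.02 (95% interval -0.23 to 0.27, adjusted p = 0.90), and with library totals alone -0.37 (adjusted p = 0.00633). Of its exon bases, 10.3% are shared with LTO1 on the opposite strand.

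CCND3, the cyclin D that predominates in several blood lineages, was at 2.09 and 2.86 CPM in siPIR libraries, 25.7 and 25.3 in SP2509 libraries and 26.7 and 22.3 in untreated libraries (chr6:41934933-42050357, minus strand). The siPIR libraries, with 40 and 55 counts, lay far below the others, which overlapped. CCND3 fell by 3.31 on the log2 scale after siPIR (SE 0.17, adjusted p = 6.56e-10), and by 1.19 with the offset (adjusted p = 1.49e-06). In SP2509 against untreated it was 0.06 (adjusted p = 0.69), and -0.33 with library totals alone (adjusted p = 0.0252). Per kb of exon, CCND3 made up 0.117 and 0.189% of the summed CCND1 and CCND3 level in siPIR libraries, 4.46 and 3.85% in SP2509 libraries and 4.16 and 3.87% in untreated libraries. CCND1 was thus the larger in every group. With the length of the longest transcript the mean CCND3 share was 0.33% in siPIR, 8.56% in SP2509 and 8.30% in untreated libraries, and with the offset, taken from the untreated level, it was 0.462% in siPIR libraries. CCND2, the other D-type cyclin, did not pass the count filter.

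**Figure D3:**
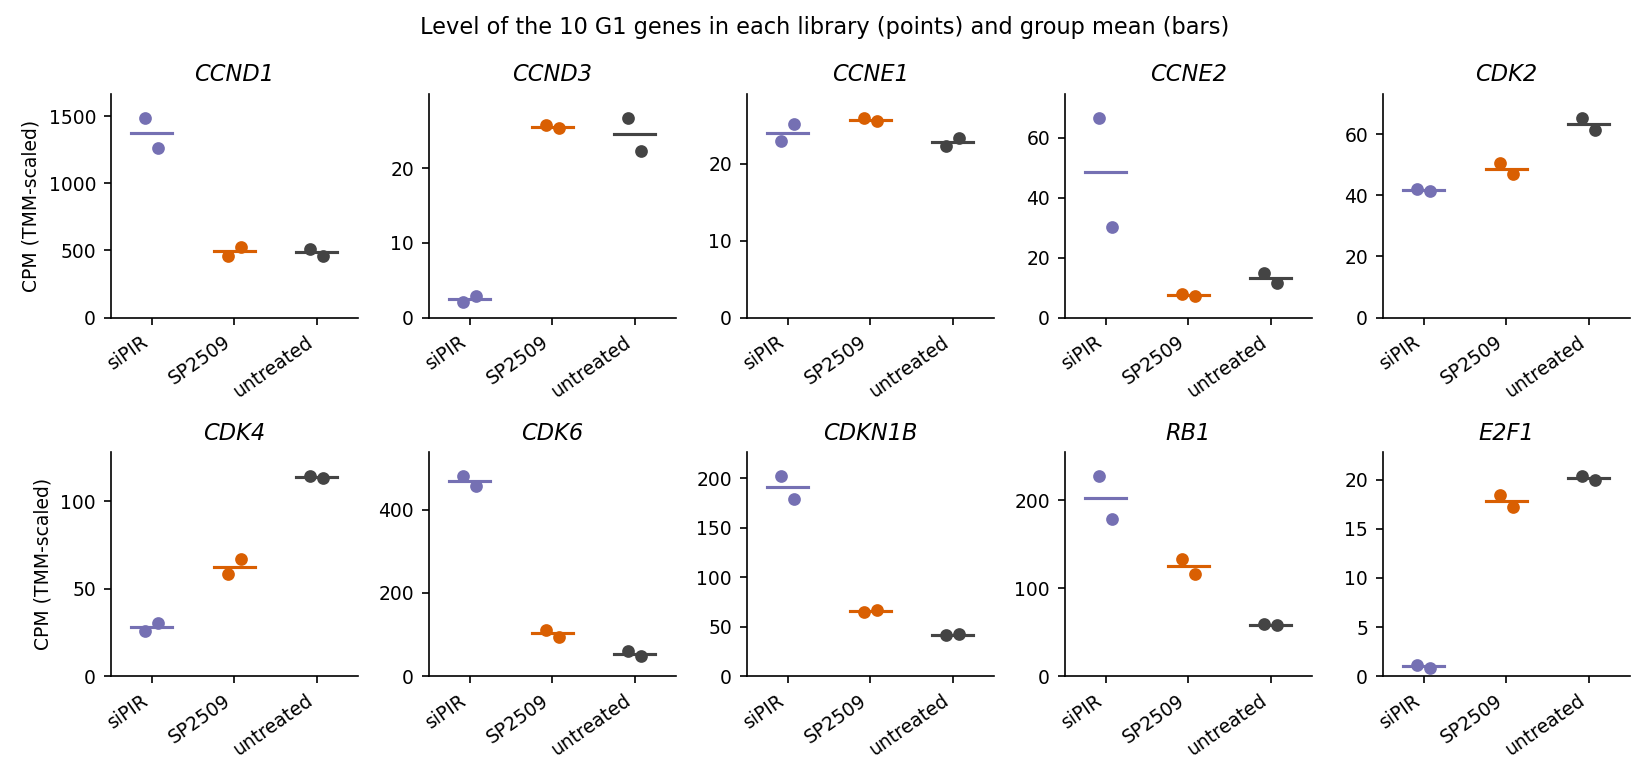
TMM-scaled CPM of each of the 10 G1 genes in every library (points, 2 per group) with the group mean (horizontal bars), in siPIR, SP2509 and untreated cells; each vertical axis starts at 0. CDK6, CDKN1B and RB1 order the groups siPIR, SP2509, untreated from high to low with no overlap. CDK4, CDK2 and E2F1 order them the other way. With the offset, siPIR against SP2509 on the log2 scale is 0.21 for CDK4, 0.58 for CDK2 and -1.30 for RB1, the reverse of these levels.

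CDK4 and CDK6 are the kinases that D-type cyclins activate, and they moved in opposite directions in both treated groups. CDK4 was at 25.5 and 30.4 CPM in siPIR libraries, 58.2 and 66.8 in SP2509 libraries and 114 and 113 in untreated libraries (chr12:57747727-57756013, minus strand). The 3 groups did not overlap. CDK4 fell by 2.02 on the log2 scale after siPIR (SE 0.12, adjusted p = 1.85e-09), by 0.64 with the offset, and by 0.86 after SP2509 (SE 0.11, adjusted p = 1.53e-05). Of its exon bases 43.2% are shared with TSPAN31 on the opposite strand, which had 222 to 396 counts per library and a log2 fold change of 0.24 after siPIR (-0.37 with library totals alone) and -0.24 after SP2509, neither past the threshold as fitted. In some other settings TSPAN31 passed after siPIR in either direction. It was higher with the offset (0.29, adjusted p = 0.0479) and with DESeq2 size factors (0.38, adjusted p = 0.0175). With library totals alone it was lower (-0.37, adjusted p = 0.0238). After SP2509 it passed with upper-quartile scaling (-0.48, adjusted p = 0.00886) and library totals alone (-0.64, adjusted p = 0.000935).

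CDK6, the second cyclin D kinase, was at 480.4 and 456 CPM in siPIR libraries, 111 and 93.7 in SP2509 libraries and 59.3 and 47.4 in untreated libraries (chr7:92604921-92836594, minus strand). Every siPIR library lay above every SP2509 library, and these above the untreated ones. CDK6 rose by 3.13 on the log2 scale after siPIR (SE 0.13, adjusted p = 1.37e-10), by 1.42 with the offset, and by 0.94 after SP2509 (SE 0.13, adjusted p = 2.49e-05). Per kb of exon, CDK6 made up 82.9 and 79.5% of the CDK4 and CDK6 level in siPIR libraries, 33.1 and 26.6% in SP2509 libraries and 11.8 and 9.78% in untreated libraries. The sum of both was 47.3 and 46.8 CPM per kb in siPIR libraries, 27.5 and 28.7 in SP2509 libraries and 40.9 and 39.6 in untreated libraries. These levels carry no offset, and CDK4 and CDK6 differ in GC content, 53.6% and 39.5%. When the untreated mean was multiplied by the fold change with the offset, the CDK6 share was 33.6% in siPIR libraries and 30.2% in SP2509 libraries, against 10.8% in untreated libraries. Which kinase RNA was the larger in siPIR libraries thus turns with the offset, CDK6 without it and CDK4 with it, while the share of CDK6 was above that of untreated cells either way.

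**Figure D4:**
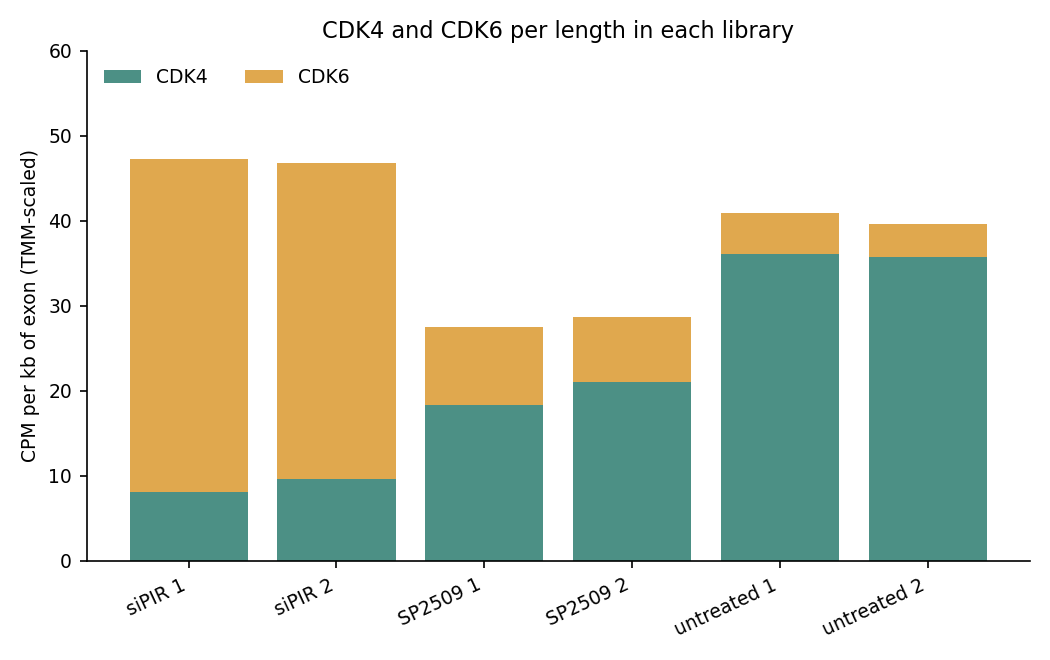
Stacked level of CDK4 and CDK6 in CPM per kb of exon, TMM-scaled, in each of the 6 libraries, without the GC-length offset. CDK6 takes 79.5 to 82.9% of the bar in siPIR libraries, 26.6 to 33.1% in SP2509 libraries and 9.78 to 11.8% in untreated libraries; with the offset its share in siPIR libraries is 33.6%.

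CCNE1, the cyclin E1 that partners CDK2 (chr19:29811898-29824308, plus strand), was at 22.9 and 25.3 CPM in siPIR libraries, 26.04 and 25.5 in SP2509 libraries and 22.4 and 23.4 in untreated libraries. Both SP2509 libraries lay above both untreated ones, but the log2 fold change of 0.17 (SE 0.10, adjusted p = 0.154) did not pass, and it was -0.22 with library totals alone. After siPIR CCNE1 was 0.07 as fitted (adjusted p = 0.519) and 1.28 with the offset (adjusted p = 1.04e-10), and -0.54 with library totals alone (adjusted p = 0.000394).

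CCNE2, the second cyclin E, was at 66.7 and 30.3 CPM in siPIR libraries, 7.78 and 7.10 in SP2509 libraries and 15.05 and 11.4 in untreated libraries (chr8:94879770-94896678, minus strand). The siPIR libraries differed from each other by more than those of any other group, with 1277 and 582 counts. After siPIR it was 1.87 higher on the log2 scale (SE 0.29, adjusted p = 9.35e-05), 1.21 without siPIR replicate 1, not called without a count filter (adjusted p = 0.0767), and -0.08 with the offset (adjusted p = 0.876). After SP2509 it fell by 0.83 (SE 0.33, adjusted p = 0.0402), a call lost without untreated replicate 1 (-0.61, adjusted p = 0.168), SP2509 replicate 1 (-0.89, 0.0812) or SP2509 replicate 2 (-0.75, 0.125). It was also lost with the offset (-0.77, adjusted p = 0.186) and without a count filter (-0.82, 0.426), and kept with the offset and a replicate block (-0.75, 5.73e-05). Of its exon bases 37.0% are shared with INTS8 on the opposite strand, whose log2 fold change after siPIR was 1.75 as fitted and -0.00 with the offset. Without the strand setting of the counting, reads of the 2 genes cannot be told apart.

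CDK2, the kinase that cyclin E activates, was at 41.9 and 41.5 CPM in siPIR libraries, 50.4 and 46.8 in SP2509 libraries and 65.4 and 61.3 in untreated libraries (chr12:55966769-55972784, plus strand). The untreated libraries were the highest and the groups did not overlap. CDK2 fell by 0.38 on the log2 scale after SP2509 (SE 0.10, adjusted p = 0.0032), a call lost without untreated replicate 1 (adjusted p = 0.0669) or SP2509 replicate 2 (0.0743). After siPIR it fell by 0.60 as fitted (adjusted p = 6.33e-05) and was 0.20 higher with the offset (adjusted p = 0.037).

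CDKN1B encodes p27, which binds cyclin E and CDK2 and blocks them (chr12:12715058-12722371, plus strand). It was at 202 and 179 CPM in siPIR libraries, 65.05 and 66.7 in SP2509 libraries and 41.2 and 42.6 in untreated libraries, with no overlap between groups. CDKN1B rose by 2.19 on the log2 scale after siPIR (SE 0.10, adjusted p = 3.15e-10), by 2.14 with the offset, and by 0.65 after SP2509 (SE 0.10, adjusted p = 8.65e-05). At 47.7% GC it lies where the median gene of siPIR libraries was near 0. Per kb of exon the level of CDKN1B was 6.68 and 5.98 times that of CDK2 in siPIR libraries, 1.79 and 1.97 times in SP2509 libraries and 0.873 and 0.963 times in untreated libraries. The inhibitor RNA thus exceeded the kinase RNA in both treated groups and lay under it in untreated cells. With the offset, from the untreated level, the ratio was 3.52 in siPIR and 1.84 in SP2509 libraries. With the longest transcript as length and no offset, the mean ratio was 4.47 in siPIR, 1.33 in SP2509 and 0.648 in untreated libraries.

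RB1, the brake on E2F (chr13:48303726-48599436, plus strand), was at 228 and 178 CPM in siPIR libraries, 134 and 116 in SP2509 libraries and 58.9 and 57.7 in untreated libraries. Both SP2509 libraries lay above both untreated ones, and both siPIR libraries above these. RB1 rose by 1.10 on the log2 scale after SP2509 (SE 0.12, adjusted p = 6.05e-06), the largest rise of the 10 genes in that comparison. After siPIR it was 1.80 higher as fitted (adjusted p = 1.4e-08), close to the median of 1.86 for genes of 35 to 40% GC, and -0.11 with the offset (adjusted p = 0.192).

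E2F1, an activating member of the E2F family (chr20:33675683-33686404, minus strand), was at 1.15 and 0.833 CPM in siPIR libraries, 18.5 and 17.2 in SP2509 libraries and 20.4 and 20.02 in untreated libraries. The siPIR libraries held 22 and 16 counts. E2F1 fell by 4.34 on the log2 scale after siPIR as fitted (SE 0.18, adjusted p = 1.01e-10), against a median of -4.11 for genes of 60 to 65% GC. With the offset it was -0.36 (SE 0.25, adjusted p = 0.219), and -0.60 (adjusted p = 0.0335) where the trend was estimated from all tested genes. Genes of 60 to 65% GC kept a median of -0.29 with the offset. After SP2509 both libraries lay below both untreated ones, but -0.18 did not pass (adjusted p = 0.165), whereas upper-quartile scaling gave -0.41 and library totals alone -0.57, both past the threshold.

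Set directly against SP2509, siPIR libraries had higher CCND1, CCNE2, CDK6, CDKN1B and RB1 and lower CCND3, CDK4 and E2F1, 8 of 10 genes where 84.3% of all genes were called, 38.8% higher and 45.5% lower. With the offset 6 were higher and 2 lower, where 68.9% of all genes were called, 31.9% higher and 37% lower. CDK6 differed by 2.19 on the log2 scale (0.44 with the offset), CDKN1B by 1.53 (1.52) and CCND1 by 1.48 (1.92). CCND3 differed by -3.36 (-1.29 with the offset). With the offset, CDK4 was 0.21 higher (adjusted p = 0.0342) and RB1 1.30 lower on the log2 scale (adjusted p = 1.16e-12) in siPIR libraries, the reverse of the as-fitted -1.16 and 0.70. Where the trend was estimated from all tested genes, CDK4 was 0.14 (adjusted p = 0.162) and no longer called. CCNE1 (1.10) and CDK2 (0.58) were higher with the offset only. Of the as-fitted calls, CCNE2 (2.70) was 0.69 with the offset (adjusted p = 0.214) and E2F1 (-4.17) was -0.24 (adjusted p = 0.414), neither past the threshold. E2F1 was -0.67 (adjusted p = 0.0171) with the trend from all tested genes.

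The order of levels per kb of exon in untreated cells ran from CCND1 at 101 CPM per kb, through CDK4 at 35.9, CDK2 at 16.3 and CDKN1B at 14.9, to CCNE2 at 3.01. RB1 at 9.04 and CCNE1 at 8.98 were neighbours above E2F1 at 8.07, as were CDK6 at 4.35 and CCND3 at 4.22, and neither pair was separated beyond the spread between libraries on this length. With the longest transcript CCND3 was at 10.2 and CDK6 at 4.597 CPM per kb, and 7 of the 10 genes had the same rank. In siPIR libraries without the offset CDK6 had rank 3 at 38.2 and CDK4 rank 8 at 8.82 CPM per kb, and with it, from the untreated level, CDK4 had rank 3 at 23.0 and CDK6 rank 6 at 11.7 CPM per kb.

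Other G1/S regulators showed both directions. After SP2509, 12 of 23 tested were higher and 9 lower, where 33.5% of all genes were higher and 35.1% lower, with a median log2 fold change of 0.29 against -0.04 over all genes. The inhibitors CDKN2D (1.65), CDKN1A (1.58), CDKN2B (0.92), CDKN1C (0.83) and CDKN2A (0.79) were higher and CDKN2C (-2.47) lower. The pocket proteins related to RB1 fell, RBL2 by 1.47 and RBL1 by 0.99. E2F7 (2.01) and E2F5 (1.33) were higher, as was CDK7 (1.71), which activates other CDKs, and E2F2 (-1.40) and E2F8 (-0.67) were lower. E2F4 (0.37) and E2F6 (0.29) were called higher as fitted and were -0.03 and -0.10 with library totals alone, and E2F3 at 0.06 was not called.

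After siPIR, 12 of 23 were higher and 7 lower as fitted, where 39.3% of all genes were higher and 46.9% lower. With the offset 11 were higher and 9 lower, where 30.9% and 33.1% of all genes were. CDKN2B (2.12 as fitted, 1.42 with the offset), E2F5 (2.33, 0.54), RBL2 (1.61, 0.60), E2F3 (1.28, 0.68) and E2F6 (1.28, 0.56) were higher in both fits, and E2F2 (-3.10, -0.66) was lower in both. CDKN1A was -0.48 as fitted and 2.21 with the offset, and CDKN2D -1.96 and 1.77. CDKN2A was -3.38 and 0.41, and RBL1 0.67 and -0.90. The remaining tested inhibitors and E2F genes were called in at most 1 of the fits, among them CDKN1C at -0.01 and 4.45, CDKN2C at -2.56 and 0.11, E2F4 at -2.96 and 0.09, E2F7 at 1.18 and 0.15 and E2F8 at -0.28 and -0.71.

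Genes that E2F factors are known to drive were counted next. After SP2509, 28 of 40 were lower and 5 higher, with a median of -0.72, where 35.1% of all genes were lower. The helicase subunits MCM6 (-1.83) and MCM3 (-1.60) and the flap endonuclease gene FEN1 (-1.32) were lower, and the licensing factor CDC6 (0.86) was higher. After siPIR, 21 were lower and 13 higher as fitted, with a median of -0.41, where 46.9% of all genes were lower and 39.3% higher, so this count is near the background. With the offset 34 were lower and 1 higher, with a median of -0.86, where 33.1% of all genes were lower. MCM2 (-4.19 as fitted, -1.52 with the offset), the thymidine kinase gene TK1 (-5.45, -1.29) and the DNA ligase gene LIG1 (-3.88, -1.74) were lower in both, and RFC3 (1.27, -0.36) changed direction.

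**Figure D5:**
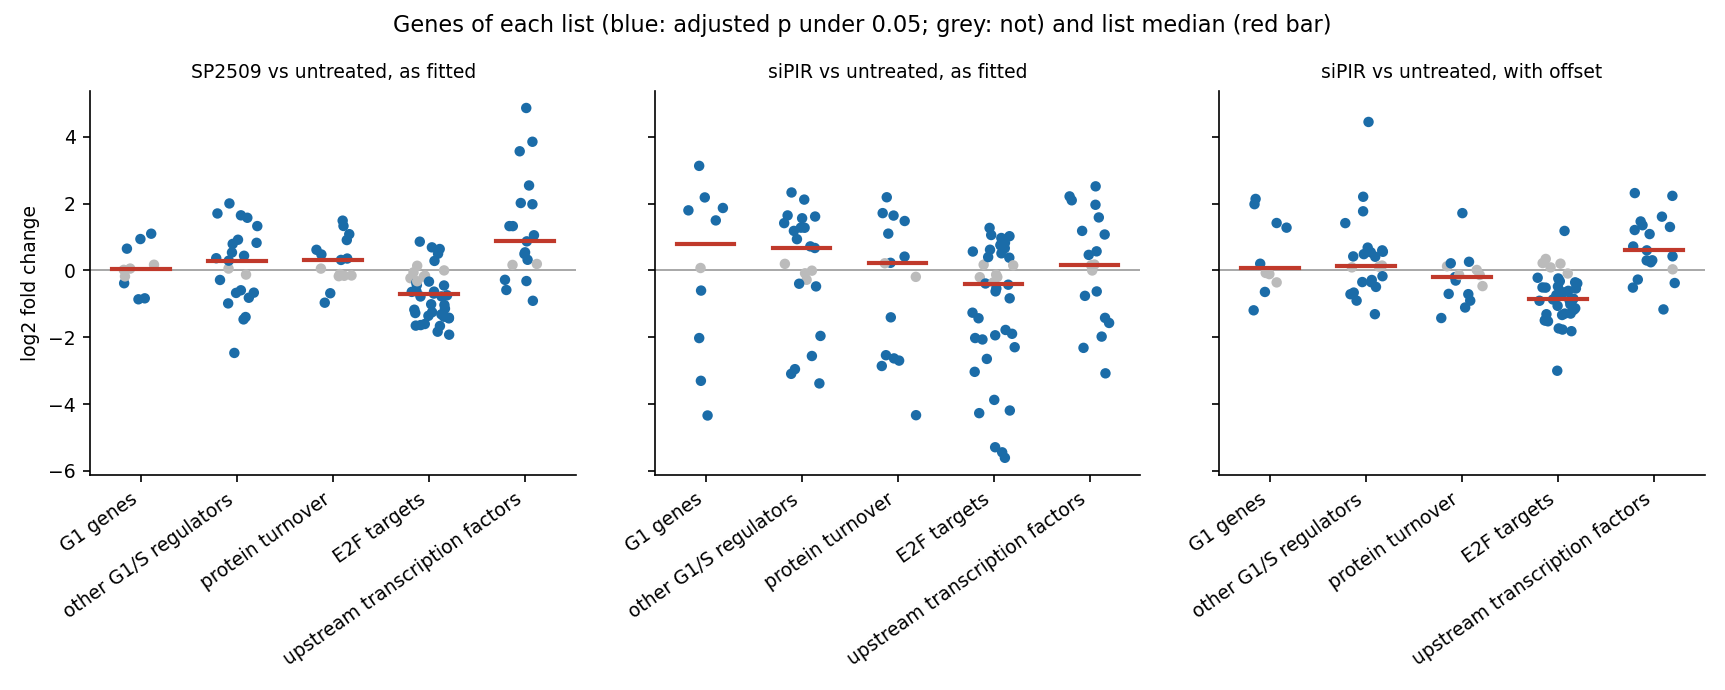
Log2 fold change of every tested gene of 5 lists (points; blue, adjusted p under 0.05; grey, not) and the list median (red bars), for SP2509 against untreated as fitted, siPIR against untreated as fitted and siPIR against untreated with the GC-length offset. Horizontal scatter within a list has no meaning. The E2F target median is -0.72 after SP2509 and, after siPIR, -0.41 as fitted and -0.86 with the offset.

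Genes that turn over G1 proteins were mixed. After SP2509, 8 of 15 were higher and 2 lower, where 33.5% of all genes were higher and 35.1% lower. FBXW7 (1.49), which targets cyclin E for degradation, CKS1B (1.33) and FBXO31 (0.91) were higher, whereas SKP2 (-0.97), which with CKS1B targets CDKN1B, was lower. After siPIR, 7 were higher and 6 lower as fitted (39.3% and 46.9% of all genes), and 3 higher and 7 lower with the offset (30.9% and 33.1%). FBXW7 (2.19 as fitted, 1.72 with the offset) and SKP1 (1.64, 0.26) were higher in both, CUL3 (1.72, -0.20) changed direction, and UBAC1 (-2.86) was 0.01 with the offset.

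Transcription factors that act upstream of these genes were higher in 13 of 19 tested after SP2509 and lower in 4, where 33.5% of all genes were higher and 35.1% lower. ETS1 (4.86), FOSL1 (3.85) and JUN (3.57) were higher and TCF7L2 (-0.91) lower. After siPIR, 9 were higher and 7 lower as fitted (39.3% and 46.9% of all genes), and 14 higher and 4 lower with the offset (30.9% and 33.1%). FOXO3 (2.10 as fitted, 2.23 with the offset), a known activator of CDKN1B, ETS1 (2.22, 1.09) and CREB1 (2.52, 0.42) were higher in both, and FOXM1 (-3.08, -1.17) was lower in both. FOXO3 (2.02) and CREB1 (1.33) were also higher after SP2509 as fitted, and FOXM1 (-0.32) was also lower.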

How the data were processed

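RNA-seq libraries were made with a directional NEBNext Ultra II kit, per the labels' protocols. Per the submitters' processing notes, FastQC 0.11.8, Trimmomatic 0.32, HISAT2, featureCounts of Subread 1.6.2, edgeR 3.26.4 and the GRCh38 build were named. For the annotation release, strandedness and fractional assignment, the choice is not given in these sources. The deposited values are the authors' estimated counts per gene with fractions, which were rounded to whole numbers. All 6 libraries entered 1 fit in edgeR 4.0.16 (R 4.3.3): filterByExpr, TMM scaling, robust quasi-likelihood F test, Benjamini-Hochberg adjustment over all 16503 tested genes, threshold 0.05. SE is the log2 fold change divided by the square root of F.

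The offset removes, per library, a spline trend on GC content and log2 length of the longest GENCODE 29 transcript (5 degrees of freedom each). The trend was fitted to log2 CPM (prior count of 2) minus the gene's mean over all 6 libraries, siPIR included. Its level was set by the median tested gene. GENCODE 29 held 57055 of the 60675 gene IDs, and 158 tested genes without GC content received the median. An earlier form of the offset left a trend in simulated data, so the shape was estimated from genes of at least 3 log2 CPM on average. This change was made after the data were seen, and the trend from all tested genes is kept as an alternative. The fits were tested on simulated data in which most genes did not change. That does not test the scaling or the offset where most genes change, as in the real data. Limma 3.58.1 (voom) and DESeq2 1.42.0 were alternatives, with other scalings, filters, blocks and left-out libraries. Same-numbered libraries did not deviate together (correlations -0.02, -0.04 and 0.08), so no block was used. The column names also carry numbers from 10 to 12, whose meaning the labels do not state, and a block on these was an alternative. The members and lists were chosen with earlier results of these data known. From each list the 3 genes of smallest adjusted p in the majority direction and 1 in the other were named, besides all tested inhibitors, pocket proteins and E2F genes. This narrowed a rule that allowed up to 4 and 2.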

Additional observations from a re-analysis of the deposited data

How the results depend on the processing

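The replicate numbers did not pair the libraries. With them as a replicate block 11179 genes were called for SP2509 against untreated, 14136 for siPIR against untreated and 13816 for siPIR against SP2509, and 6, 9 and 8 of the 10 genes. Blocking on the numbers of the column names called 12016 genes for SP2509 against untreated, 13533 for siPIR against untreated and 13199 for siPIR against SP2509. Of the 10 genes 6, 9 and 9 were called, CDK2 (-0.276, adjusted p = 0.0325) being added for siPIR against SP2509. Only siPIR replicate 1 carries the number 10, so with this block the siPIR estimates rest on siPIR replicate 2 alone. CCNE2 after siPIR was 1.06 with this block, against 1.87 in the main fit and 1.21 without siPIR replicate 1. Leaving out 1 library at a time gave 9340 to 12578, 13550 to 14427 and 13298 to 13959 genes, and 4 to 6, 9 to 9 and 8 to 9 of the 10. Where a group keeps 1 library, it is assumed to vary like the other groups. Without 1 library, CCND1 after SP2509 ranged from -0.065 to 0.128, CCND3 from -0.073 to 0.207 PIR after SP2509 from -0.277 to 0.053 and CDKN1C after siPIR from -0.15 to 0.12.

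For SP2509 against untreated, upper-quartile scaling turned CCND1 to -0.22, CCND3 to -0.18, CCNE1 to -0.063 INTS8 to -0.053 and E2F3 to -0.18. Library totals alone turned CCND1 to -0.37, CCND3 to -0.33, CCNE1 to -0.22, E2F3 to -0.33, E2F4 to -0.025, INTS8 to -0.208 and E2F6 to -0.10. The filter of 1 CPM in 2 libraries turned CCND1 to -0.008, and the all-gene offset E2F1 to 0.072. DESeq2 (adjusted p = 0.156) and voom (0.0578) did not call CCNE2.

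For siPIR against untreated, CCNE1 turned to -0.10 with upper-quartile scaling, -0.54 with library totals alone and -0.006 without a filter. With the offset, the offset with replicate block and the all-gene offset (added after seeing the data), CCNE2 was -0.075, -0.103 and -0.019, CDK2 0.20, 0.20 and 0.26, RB1 -0.11, -0.11 and -0.064, CDKN2A 0.41, 0.41 and 0.11, CDKN2C 0.11, 0.13 and 0.084, CDKN2D 1.77, 1.78 and 1.495, CDKN1A 2.21, 2.20 and 2.15, CDKN1C 4.45, 4.45 and 4.06, RBL1 -0.90, -0.90 and -0.83, E2F4 0.091, 0.091 and 0.014, CUL3 -0.20, -0.20 and -0.16, and RFC3 -0.36, -0.36 and -0.29. UBAC1 was 0.014 and 0.017, and INTS8 -0.002 and -0.004, with the first and second. TSPAN31 was -0.373 with library totals alone. CDKN1C was 0.14 with DESeq2 size factors, 0.14 with DESeq2 and 0.016 with the 1 CPM filter. For siPIR against SP2509, the same 3 offsets gave CCNE1 1.10, 1.10 and 1.04, CDK2 0.58, 0.58 and 0.56, CDK4 0.21, 0.21 and 0.14, RB1 -1.30, -1.30 and -1.13, and INTS8 -0.251, -0.253 and -0.075. CCNE1 was 0.022 with DESeq2 size factors and 0.022 with DESeq2. The cause was not tested. With the longest transcript as length, 7 genes kept their rank in untreated, 4 in SP2509 and 4 in siPIR libraries. That length gave a CDK6 share of 75.0% in siPIR, 22.8% in SP2509 and 7.73% in untreated libraries, a CCND3 share of 0.33%, 8.56% and 8.30%, and a CDKN1B to CDK2 ratio of 4.47, 1.33 and 0.648. The offset, anchored at untreated, gave 33.6%, 0.462% and 3.52 in siPIR libraries. Both were chosen after seeing the data for these shares and ratios. With 2 libraries a group, small differences could not be resolved.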
